A study of Mus musculus with 6 samples.

Results

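The genes described here are 10 neighbours in the imprinted domains at the distal end of mouse chromosome 7: H19, Igf2, Ascl2, Cd81, Tssc4, Kcnq1ot1, Cdkn1c, Slc22a18, Phlda2 and Nap1l4. They were chosen by symbol, and all 10 were found among the 22558 gene entries of each of 3 deposited tables. Messenger RNA was sequenced from 6 pluripotent mouse cell cultures at passage 25, with 1 library per culture. Embryonic stem cells (ESC) on the 129Sv background were labelled H2A.X Cre KO or H2A.X Flox Flox, the latter being the control with recombination sites around an intact gene. On a mixed 129Sv/C57 background, induced pluripotent stem cells (iPSC) were made from fibroblasts of the peritoneum (PF) or of the tail tip (TTF), and each source gave 1 line labelled 4N- and 1 labelled 4N+. Outside the labels, 4N is known as shorthand for tetraploid complementation, in which injected cells must build the embryo proper by themselves. Beyond the labels, a genotype is stated only for the knockout. The source name of each iPSC line also carries H2A.X, without saying whether the gene was altered. All 6 cultures grew on feeder cells with LIF and were moved to gelatin before lysis to remove the feeders. Each group of a table is 1 culture, so no comparison within a table has a replicate check.

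Imprinted genes are transcribed mainly from the copy inherited from 1 parent, under the control of DNA methylation laid down in the germ line. The first of these domains holds Igf2, a fetal growth factor gene expressed from the paternal copy, and H19, a noncoding RNA gene expressed from the maternal copy. An insulator bound by CTCF decides on each chromosome which of them reaches their shared enhancers. In the second domain the paternal noncoding RNA Kcnq1ot1 silences a group of neighbours in cis, among them the growth inhibitor genes Cdkn1c and Phlda2, so that these are expressed from the maternal copy. Both domains are best known for their role in fetal and placental growth. Gene-level values do not separate the parental copies.

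On mm9 the 10 genes span 973559 bp. H19 lies at chr7:149761436-149764051 and Igf2 follows 72621 bp further on, at chr7:149836672-149856261. The second group starts with Ascl2 (chr7:150152726-150155169), 296465 bp beyond Igf2, and goes on through Cd81, Tssc4 and Kcnq1ot1 to Cdkn1c (chr7:150644243-150646955). Slc22a18 starts 12704 bp after Cdkn1c, Phlda2 (chr7:150687452-150688429) starts 2215 bp after Slc22a18, and Nap1l4 closes the row. The position listed for Kcnq1ot1 is that of the whole Kcnq1 locus, chr7:150293158-150612947, in which it lies on the opposite strand. Strand use is not stated, so reads of Kcnq1ot1 and Kcnq1 cannot be told apart with certainty.

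RefSeq promoter windows (build GRCm38.p6, 250 bases before to 50 after a start) were matched for 7 of the 10 genes and gave 10 windows, since Igf2 has 4 starts. CpG dinucleotides, the sites of imprint methylation, are set in capitals in 3 of them. Igf2 is shown as the member with the largest difference in the ESC libraries, Phlda2 as a member under 2-fold there, and Kcnq1ot1 because its start lies in the control region of the second domain. The Igf2 window is the most downstream of its starts, at chr7:142657447-142657746 on the minus strand. That of Phlda2 is chr7:143502475-143502774 and that of Kcnq1ot1 chr7:143296498-143296797, both on the minus strand.
Igf2: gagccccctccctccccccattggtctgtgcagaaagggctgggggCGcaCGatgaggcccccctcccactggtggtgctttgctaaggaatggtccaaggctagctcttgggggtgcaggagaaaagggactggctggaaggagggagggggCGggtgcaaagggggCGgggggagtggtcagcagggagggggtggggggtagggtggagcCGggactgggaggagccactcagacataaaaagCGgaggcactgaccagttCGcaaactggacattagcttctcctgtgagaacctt
Phlda2: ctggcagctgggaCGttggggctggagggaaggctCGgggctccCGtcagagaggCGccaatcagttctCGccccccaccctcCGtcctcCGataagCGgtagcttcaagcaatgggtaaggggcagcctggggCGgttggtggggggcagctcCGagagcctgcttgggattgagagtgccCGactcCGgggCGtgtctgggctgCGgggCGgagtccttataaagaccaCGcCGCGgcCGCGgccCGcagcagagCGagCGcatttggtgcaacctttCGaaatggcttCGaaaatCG
Kcnq1ot1: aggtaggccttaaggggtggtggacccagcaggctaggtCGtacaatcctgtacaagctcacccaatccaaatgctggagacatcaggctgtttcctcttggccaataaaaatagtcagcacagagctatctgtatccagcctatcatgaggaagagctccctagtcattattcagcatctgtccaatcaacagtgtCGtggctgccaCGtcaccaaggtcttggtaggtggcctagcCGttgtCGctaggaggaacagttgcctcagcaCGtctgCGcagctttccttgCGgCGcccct
The Phlda2 window holds 26 CpG, more than or as many as 84.5% of the 32851 windows of the table. The Igf2 window shown holds 7 and the Kcnq1ot1 window 9, close to the median of 7 over all windows. The other 3 Igf2 starts hold 24, 14 and 2. The GC box GGGCGG, searched on both strands, occurs in 5 of the 10 windows and in 35.7% of all windows, and the TATA box letters TATAAA occur in 2 of the 10 (Cd81 and Phlda2) and in 13.6% of all. These matches describe the letters only, and the gene-level Igf2 value sums over its starts.

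Both genes of the first domain carry a microRNA, and the mature sequences are given here with the seed (bases 2 to 8) in capitals because the tables have separate entries for them. In GENCODE M21 Mir675 lies inside an exon of H19, and Mir483 lies inside Igf2 outside its exons.
mmu-miR-675-5p: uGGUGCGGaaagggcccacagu
mmu-miR-675-3p: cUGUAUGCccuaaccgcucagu
mmu-miR-483-5p: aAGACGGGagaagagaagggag
mmu-miR-483-3p: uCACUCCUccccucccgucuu
No 2 of the 4 share a seed. Mir675 and Mir483 were listed at 0 in all 6 libraries. A library made from messenger RNA does not capture mature microRNAs, so these zeros say nothing about them.

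Levels are FPKM as deposited, fragment numbers divided by the length of the transcript and the depth of the library. Effective depth, recovered from the step size of intronless receptor genes, was 39059600 to 61181100 fragments per library. At these depths 1 FPKM on a transcript of 2000 bp stands for 70.2 to 110 fragments. Both PF libraries gave the same value, 44389400, so whether it is the number of fragments sequenced cannot be told. The fragment numbers and counting intervals below rest on effective depth. The H2A.X gene itself, H2afx, had 6.18 FPKM in the library labelled knockout and 34.9 FPKM in its control. In bulk RNA fewer cells of a type and less RNA per cell cannot be told apart.

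**Figure D1:**
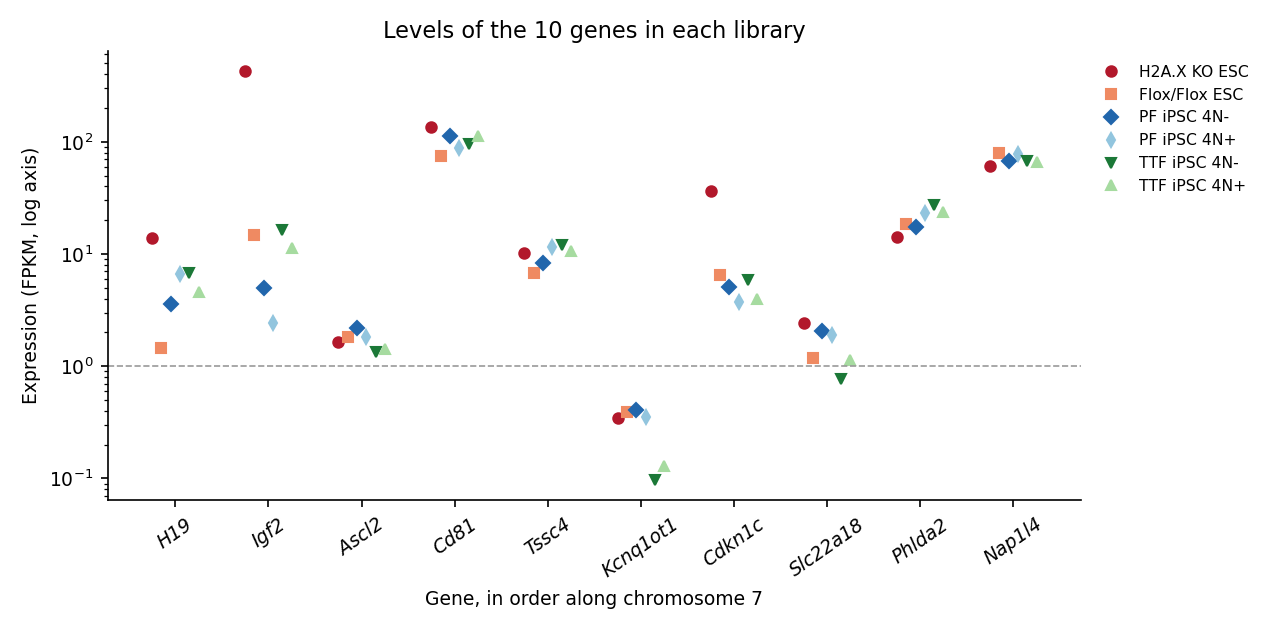
Expression of each gene (FPKM, log axis) in the 6 libraries, in order along the chromosome, 1 point per library and a dashed line at 1 FPKM. The Igf2, H19 and Cdkn1c points of the knockout ESC library stand above their other 5, whereas the points of Nap1l4 lie close together between 61.4 and 79.0 FPKM.

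The first comparison set the knockout ESC beside the Flox/Flox ESC. In the first domain both genes were higher in the knockout. Igf2 stood at 426 FPKM in the knockout and at 14.7 FPKM in the Flox/Flox library, a fold of 29.0. Its rank from the top among all gene entries was 52 in the knockout and 4010 in the Flox/Flox library. H19, the noncoding partner expressed from the other parental copy, stood at 13.9 FPKM against 1.44 FPKM, 9.68-fold higher. The H19 fold had a counting interval of 8.18 to 11.6 and that of Igf2 one of 26.0 to 32.5. These are conditional exact binomial 95% intervals on approximate fragment numbers and cover counting error only.

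In the second domain the members did not share a direction. Cdkn1c, which encodes the cyclin-dependent kinase inhibitor p57, stood at 36.6 FPKM in the knockout and 6.44 FPKM in the Flox/Flox library, 5.68-fold higher (counting interval 5.17 to 6.25). Phlda2, a second maternally expressed growth inhibitor of the placenta, stood at 14.2 against 18.6 FPKM. Slc22a18, a transporter gene that lies between those 2, stood at 2.41 against 1.19 FPKM. So the 3 adjacent maternally expressed genes stood at 5.68-fold, 2.02-fold and 0.765-fold of the Flox/Flox value, in their order along the chromosome. The Slc22a18 interval was 1.499 to 2.69 and that of Phlda2 0.661 to 0.882.

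Ascl2, a transcription factor gene needed for the spongiotrophoblast of the placenta, was low and close to level at 1.65 against 1.81 FPKM (fold 0.915, counting interval 0.585 to 1.39). Cd81, a tetraspanin gene of the cell surface, was the most abundant member in the Flox/Flox library after Nap1l4 and stood at 135 FPKM in the knockout against 74.4 FPKM, 1.81-fold higher. Tssc4 stood at 10.2 against 6.83 FPKM. Nap1l4, a histone chaperone gene at the edge of the domain, stood at 61.4 against 79.0 FPKM. Kcnq1ot1, the RNA that silences the domain in cis, was at 0.349 against 0.390 FPKM, under the minimum of 1 FPKM set for counting a gene.

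On the scale log2(FPKM + 1), which understates the change of low genes, 9 of the 10 members reached 1 FPKM in at least 1 of the 2 ESC libraries. Of these 3 exceeded the Flox/Flox value by 2-fold or more (Igf2 at 4.77, H19 at 2.61 and Cdkn1c at 2.34), and 0 fell short of it by as much. Among all 12086 genes measured the share past 2-fold was 7.49% upward and 3.72% downward. The median log2 ratio of the 9 members was 0.64 and that of all measured genes -0.03. Only 16 of the measured genes had a higher ratio than Igf2, 74 a higher one than H19 and 102 a higher one than Cdkn1c. After centring on the median of the genes that reached 5 FPKM in each library, which lay at -0.20, Cd81 passed 2-fold as well (1.05), and Ascl2 turned from -0.08 to 0.12. Over all measured genes that centring gave 1412 higher and 202 lower by 2-fold, in place of 905 and 449. The authors' deposited table called Igf2 (q = 5.13e-05), H19 (q = 0.00667) and Cdkn1c (q = 0.0171) and no other member, where 1.38% of the 14589 genes it tested were called higher and 0.0548% lower. A q from 1 library per condition compares those libraries, not the conditions.

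**Figure D2:**
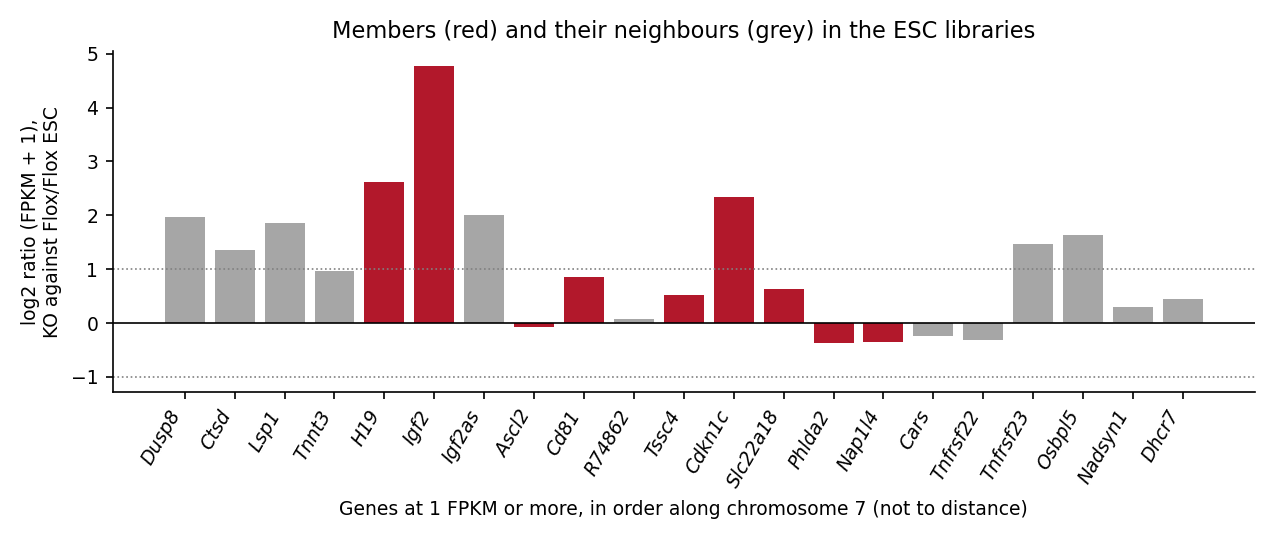
Bars give the log2 ratio of FPKM + 1, knockout against Flox/Flox ESC, for each gene at 1 FPKM or more in a window reaching 500000 bp beyond the members, in chromosome order, with members in red, neighbours in grey and dotted lines at 2-fold. Igf2 has the tallest bar at 4.77, and bars of both directions stand side by side around Cdkn1c and Phlda2.

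Of 12 other measured entries in this window 6 passed 2-fold upward and 0 downward. In the Flox/Flox library 6 of the 12 were under 1 FPKM, among them 5 of the 6 past 2-fold, so these were counted only because they are high in the knockout, and the count says nothing about the window as a whole. From the list of 18 domain neighbours 9 were measured, and 4 of them passed 2-fold upward, beside 7.49% of all measured genes. Those were Ctsd, which encodes the lysosomal protease cathepsin D (226 against 88.0 FPKM), the lymphocyte protein gene Lsp1 (3.35 against 0.201 FPKM), Osbpl5 (3.32 against 0.397 FPKM) and the decoy receptor gene Tnfrsf23 (2.19 against 0.150 FPKM). In the Flox/Flox library 4 of the 9 were under 1 FPKM, 3 of the 4 past 2-fold among them, and so were counted through the knockout alone.

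Markers of other cell types moved with this comparison. Of 20 trophoblast markers 15 were measured, and 12 of those were higher in the knockout by 2-fold or more, 4 of which lay below 1 FPKM in the control and were counted only through the knockout. Over all measured genes 7.49% were higher and 3.72% lower by 2-fold or more. The summed level of the trophoblast list was 1466 against 125 FPKM. The largest log2 ratios were those of Lgals3 (97.2 against 3.02 FPKM), Krt8 (188 against 6.80 FPKM), Krt18 (659 against 26.7 FPKM) and Rhox6 (247 against 11.01 FPKM). Among transcription factor genes of the lineage Hand1 stood at 34.0 against 0.829 FPKM and Gata3 at 1.64 against 0.133 FPKM. Tead4 stood at 4.78 against 4.31 FPKM. The 2 measured markers with the lower value in the knockout were Eomes (1.79 against 2.65 FPKM) and Esrrb (36.7 against 52.7 FPKM). Cdx2, under 1 FPKM in both libraries and so not counted, was at 0.765 against 0.0930 FPKM. Elf5 and the giant cell hormone gene Prl3d1 stayed under 0.1 FPKM in both libraries. Of 15 extraembryonic endoderm markers 7 were measured and 4 at least 2-fold higher, 1 of them under 1 FPKM in the Flox/Flox library (summed level 376 against 97.9 FPKM). Those 4 were Gata4, Col4a1, Col4a2 and Sparc, the last holding 247 against 60.2 FPKM of the sum. Lama1 was lower (2.83 against 3.36 FPKM). Gata6, Sox7, Sox17, Foxa2 and Pdgfra were under 1 FPKM in both libraries, and Afp and Ttr at or below 0.0213 FPKM. Of 15 fibroblast markers 7 were measured and 5 at least 2-fold higher, 4 of those being under 1 FPKM in the Flox/Flox library (133 against 84.9 FPKM), while Col1a1 stood at 0.291 against 0.0402 FPKM. Of 10 mesoderm and muscle markers 2 were measured, both at least 2-fold higher and 1 under 1 FPKM in the Flox/Flox library (12.1 against 4.43 FPKM). Of 12 pluripotency genes, the check of the labelled cell type, all were measured, and 2 were at least 2-fold lower (1495 against 2766 FPKM). These lists were chosen with earlier results of these data known, so their counts are a description only. The part of these cells in the levels of Igf2, H19 and Cdkn1c was not tested.

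The IGF pathway was followed from ligand to receptor. Igf2r, which encodes the receptor that clears IGF2, stood at 27.6 FPKM in the knockout against 12.02 FPKM, and Igf1r, the signalling receptor gene, at 5.41 against 3.38 FPKM. Of 18 genes of this pathway 13 were measured, of which 4 passed 2-fold upward and 0 downward, beside 7.49% and 3.72% of all measured genes. Of these 4, 2 (Irs2 and Igfbp6) were under 1 FPKM in the control and counted only through the knockout. Those 4 were Igf2r, the adaptor gene Irs2 (3.99 against 0.458 FPKM) and the genes of the IGF binding proteins Igfbp6 (5.90 against 0.111 FPKM) and Igfbp2 (240 against 118 FPKM). The ligand gene Igf1 was at 0.0579 FPKM in the knockout and 0.0907 FPKM in the control.

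The imprint maintenance list holds mainly genes that set, keep or remove DNA and histone methylation. Also on it are Ctcf, the cohesin genes Rad21, Smc1a, Smc3 and Stag2, and Rnf2. All 23 were measured, and 23 had the lower value there as deposited and 22 after centring, 3 by 2-fold or more on either scale (median log2 ratio -0.74). Over all measured genes 51.7% had the lower value in the knockout and 3.72% passed 2-fold downward. Past 2-fold were Tet1, an oxidase of methylcytosine that acts toward the removal of methylation (21.5 against 82.1 FPKM), and the methyltransferase genes Dnmt3a (13.3 against 35.8 FPKM) and Dnmt3b (36.0 against 89.4 FPKM). Ezh2, a histone methyltransferase of Polycomb, stood at 54.0 against 105 FPKM. Ctcf, whose protein binds the insulator between Igf2 and H19, stood at 23.1 against 43.3 FPKM, and Zfp57, which protects imprints, at 98.1 against 128 FPKM.

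**Figure D3:**
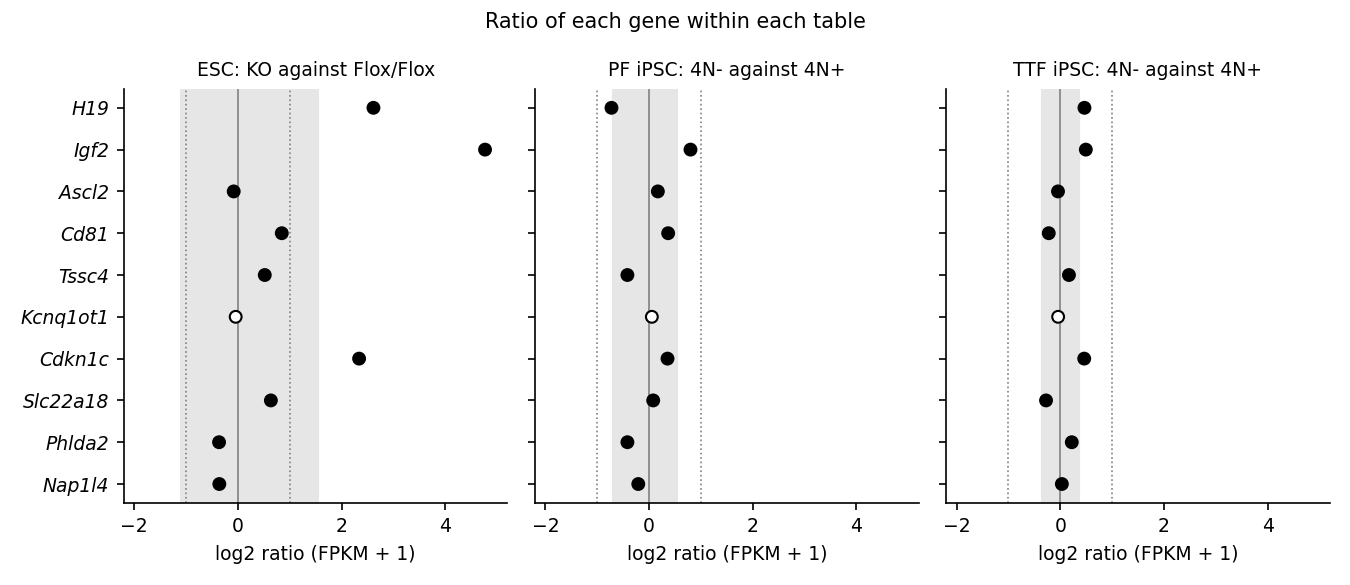
Log2 ratio of FPKM + 1 of each gene in the 3 within-table comparisons, 1 point per gene, open where both libraries were under 1 FPKM. Grey bands hold the central 95% of measured genes and dotted lines mark 2-fold. Igf2, H19 and Cdkn1c lie right of the band in the ESC panel and in the TTF panel, while in the PF panel Igf2 lies right of it and H19 left of it.

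In the iPSC lines Igf2, H19 and Cdkn1c lay closer together than in the ESC libraries. The ratios of Phlda2 and Ascl2 lay slightly further from level in the PF pair than in the ESC pair, with overlapping counting intervals. These were 0.648 to 0.837 in the PF pair and 0.661 to 0.882 in the ESC pair for Phlda2. For Ascl2 they were 0.810 to 1.80 and 0.585 to 1.39. Within the PF pair Igf2 and H19 stood in opposite order. The 4N- line had 4.998 FPKM of Igf2 against 2.45 FPKM in the 4N+ line (2.04-fold, counting interval 1.45 to 2.98). For H19 it had 3.61 FPKM against 6.62 FPKM (0.545-fold, 0.475 to 0.624). Both counting intervals leave out a fold of 1. Cdkn1c stood at 5.04 against 3.72 FPKM and Phlda2 at 17.2 against 23.4 FPKM. Cd81 stood at 113 against 87.7 FPKM and Tssc4 at 8.37 against 11.5 FPKM. The remaining members were Ascl2 (2.18 against 1.82 FPKM), Slc22a18 (2.08 against 1.91 FPKM), Kcnq1ot1 (0.405 against 0.353 FPKM) and Nap1l4 (67.3 against 77.9 FPKM). Apart from Igf2 and H19, all members were within 1.5-fold.

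Of 9 members measured in the PF pair 0 passed 2-fold upward and 0 downward on the log2(FPKM + 1) scale, where 0.577% of 11606 measured genes were higher by that much and 0.974% lower. With a pseudocount of 0.1 Igf2 passed 2-fold, at 1.001. The members' median was 0.08, that of all measured genes -0.13. The log2 ratio of Igf2 was 0.80, above that of 99.1% of measured genes, and that of H19 was -0.73, with 2.27% of measured genes at or below it. The authors' deposited table called no member in this pair (q = 0.805 for Igf2 and q = 0.768 for H19), among 0.0931% of genes called higher and 0.444% called lower. Fibroblast markers moved with this pair: 10 of 15 were measured and 6 stood lower in the 4N- line by 2-fold or more, 5 of which were under 1 FPKM there and counted only through the 4N+ line (summed level 90.3 against 180 FPKM), led by S100a4 at 0.153 against 40.1 FPKM, while Lum was listed at 0 in both lines. Trophoblast markers summed to 127 against 139 FPKM, with 0 of 12 measured at least 2-fold higher and 1 lower. Esrrb alone held 77.2 against 87.5 FPKM of these sums. The part of fibroblast RNA in the H19 and Igf2 levels was not tested.

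In the TTF pair both genes of the first domain were higher in the 4N- line. H19 stood at 6.73 FPKM against 4.59 FPKM (1.47-fold, counting interval 1.32 to 1.63) and Igf2 at 16.3 against 11.3 FPKM (1.44-fold, 1.25 to 1.68). Cdkn1c was at 5.90 against 4.01 FPKM (1.47-fold, 1.30 to 1.68), so these 3 genes had folds of almost the same size. Phlda2 stood at 27.6 against 23.5 FPKM, Tssc4 at 12.1 against 10.7 FPKM and Nap1l4 at 67.7 against 66.2 FPKM. Lower in the 4N- line were Cd81 (95.6 against 112 FPKM), Slc22a18 (0.767 against 1.14 FPKM) and Kcnq1ot1 (0.0972 against 0.128 FPKM). Ascl2 was close to level (1.35 against 1.42 FPKM).

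None of the 9 members measured in the TTF pair reached 2-fold in either direction, where 0.185% of 11354 genes passed it upward and 0.564% downward. Their median log2 ratio was 0.17, against 0.00 for all measured genes. The ratios of Igf2 (0.49), H19 (0.47) and Cdkn1c (0.46) each lay above those of at least 98.6% of measured genes. No member was called in the authors' deposited table for this pair either, the lowest q being that of H19 (q = 0.812), among 0.119% of genes called higher and 0.182% called lower. Trophoblast markers summed to 189 against 178 FPKM, Esrrb alone holding 66.9 against 72.4 FPKM of that. Of 13 measured ones 7 were higher, beside 50.1% of all measured genes, and 6 lower, none by 2-fold. Rhox6 (0.64), Esx1 (0.59), Krt8 (0.48), Krt18 (0.44) and Plac1 (0.41) lay above the central 95% of measured log2 ratios (-0.36 to 0.37), and Tead4 (-0.42) below it. The part of these cells in the members' levels was not tested. Of the 15 fibroblast markers 3 were measured in this pair, none of them 2-fold apart (72.5 against 94.4 FPKM over the list).

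Over both pairs, the 4N- and 4N+ lines were compared with limma on the within-table ratios, with parental cells as a block and 1 residual degree of freedom. At a Benjamini-Hochberg adjusted p below 0.05 this fit called 5 genes higher in the 4N- lines (0.0417% of 11985) and 9 lower (0.0751%), and none of the 9 members tested. At an unadjusted p under 0.05 it held 2 of the 9 members and 3.72% of all genes tested. Igf2 was 0.65 higher on the log2 scale in the 4N- lines (SE 0.15, higher in 2 of 2 pairs), with a limma adjusted p of 0.487. Cdkn1c was 0.41 higher (SE 0.14, 2 of 2 pairs), with a limma adjusted p of 0.960. When small RNA genes, which such libraries capture poorly, were left out, the limma adjusted p of Igf2 was 0.0120, and with a minimum of 5 FPKM it was 0.0382. The Igf2 change was 0.65 in both of these fits too, with an SE of 0.16 and 0.17, no smaller than in the main fit. The lower values thus came with the set of genes over which limma pools the spread, not with a clearer difference in Igf2. With no replicate block, which sets values of different tables side by side, the lowest limma adjusted p of a member was 1. Leaving out the PF 4N+ line or the TTF 4N- line, in fits without the block, turned the Igf2 change to -0.27 and -0.12. H19 differed by -0.13 (SE 0.23, lower in 1 of 2 pairs).

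The other IGF genes are set beside Igf2 here. Of 11 pathway genes measured in the PF pair 1 passed 2-fold upward in the 4N- line and 1 downward, beside 0.577% and 0.974% of all measured genes. These were Grb10, an imprinted adaptor gene that restrains growth (25.2 against 8.22 FPKM), and Igfbp7 (0.541 against 3.62 FPKM), the latter counted through the 4N+ line alone. Grb10 stood the other way round in the TTF pair (13.4 against 24.3 FPKM). There 10 of the 11 measured pathway genes were lower in the 4N- line, beside 49.9% of all measured genes, and none by 2-fold. Igf2r stood at 13.1 against 11.7 FPKM in the PF pair and 10.3 against 12.4 FPKM in the TTF pair.

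In the PF pair 18 of the 23 imprint maintenance genes had the lower value in the 4N- line, as did 68.1% of all measured genes, with Dnmt3a at 11.4 against 23.9 FPKM as the only one past 2-fold. Zfp57 stood at 211 against 109 FPKM there. After the same centring, whose shift was -0.17 in this pair, 16 of the 23 were lower, and Zfp57 passed 2-fold upward while Dnmt3a no longer passed it. In the TTF pair 11 of the 23 were higher and 12 lower, none by 2-fold, with Dnmt3a at 26.1 against 21.1 FPKM. Of the 18 domain neighbours 5 were measured in each pair and none differed 2-fold, Ctsd standing at 107 against 92.4 FPKM in the PF pair and 109 against 119 FPKM in the TTF pair.

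The tables may have been scaled separately, so levels of different tables are set side by side here only with that limit, and no spread is known for any of them. The ratio of 2 genes within a library does not depend on the scaling of the library. Igf2 over H19, both in FPKM and so per length, was 30.6 in the knockout ESC and 10.2 in the Flox/Flox ESC. It was 1.39 in the PF 4N- line and 0.370 in the PF 4N+ line, and 2.42 and 2.46 in the TTF 4N- and 4N+ lines. So H19 exceeded Igf2 in 1 library, the PF 4N+ line, and the 2 TTF lines had nearly the same ratio although both genes were higher in the 4N- line. The ratio differed 2.998-fold within the ESC pair, 3.75-fold within the PF pair and 0.985-fold within the TTF pair.

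Cdkn1c over Phlda2, a pair of maternally expressed growth inhibitors of the second domain, was 2.58 in the knockout ESC and at most 0.347 in the other 5 libraries. Its lowest value was 0.159, in the PF 4N+ line. The knockout ESC was thus the 1 library in which Cdkn1c exceeded Phlda2. Phlda2 over Nap1l4 was 0.232 in the knockout and 0.235 in the Flox/Flox library, a fold of 0.984, so that these neighbours stood in nearly the same ratio, while Cdkn1c over Nap1l4 differed 7.31-fold.

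**Figure D4:**
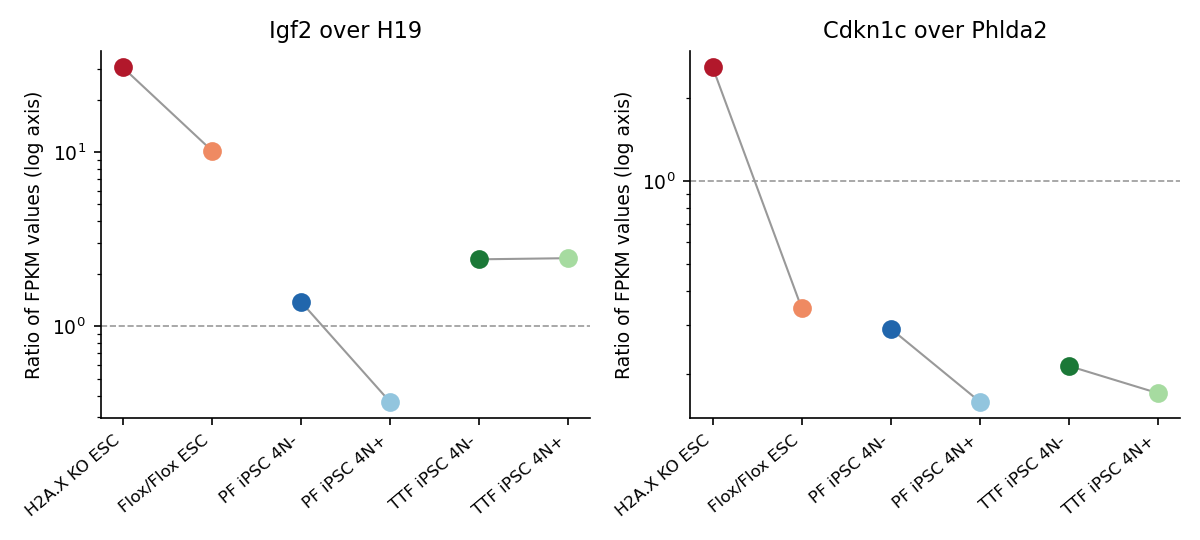
Ratio of 2 FPKM values within each library (log axis), Igf2 over H19 on the left and Cdkn1c over Phlda2 on the right, 1 point per library, with grey lines joining the libraries of 1 table and a dashed line at equal levels. Igf2 over H19 falls below 1 in the PF 4N+ line, and Cdkn1c over Phlda2 rises above 1 in the knockout ESC.

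Across the 6 libraries Igf2 had the widest range of the members, from 2.45 FPKM in the PF 4N+ line to 426 FPKM in the knockout ESC. Its order from the top was knockout ESC, TTF 4N- (16.3), Flox/Flox ESC (14.7), TTF 4N+ (11.3), PF 4N- (4.998) and PF 4N+ (2.45). Outside the knockout its rank from the top ran from 3670 in the TTF 4N- line to 9559 in the PF 4N+ line. Without the knockout library H19 lay between 1.44 and 6.73 FPKM and Cdkn1c between 3.72 and 6.44 FPKM. Kcnq1ot1 stood between 0.349 and 0.405 FPKM in the ESC and PF libraries and at 0.0972 and 0.128 FPKM in the TTF lines, with ranks from 12578 to 13730 and of 14885 and 14415. Nap1l4, from 61.4 to 79.0 FPKM, kept a rank between 693 and 843 in all 6.

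The genes most like 4 of the members were sought among 7907 candidates, by the distance between their log2 ratios in the 3 within-table comparisons. Nearest to Igf2 were the keratin genes Krt8 (distance 0.45 on the log2 scale) and Krt18 (0.69) and the transglutaminase gene Tgm2 (0.69). Nearest to H19 were Zyx (0.27), Nppb (0.42) and Rhob (0.44). Nearest to Cdkn1c were Msx2 (0.27), Gata2 (0.31) and Taf7l (0.33). Krt8, Krt18 and Gata2 are also on the trophoblast marker list. Phlda2 had Ddah1 (0.02), Tmem8 (0.04) and Bop1 (0.04) nearest to it. Likeness over 3 ratios of single libraries is a description only.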

How the data were processed

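The members and gene lists were chosen with earlier results of these data known. Reads passed through CASAVA and TopHat2 on mm9, per the submitters' processing notes. Which program quantified them, with which annotation, strand setting and scaling, is not given in the sources used. Per the file headers each of 3 tables compares 2 libraries, with a level per library, a p-value and a q-value deposited by the authors. The levels were taken as FPKM as deposited by the authors, since they were never negative and not whole. The deposited log2 fold change sets the second column over the first and served only as a check of direction.

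Ratios were formed within a table on log2(FPKM + 1). A gene was measured at 1 FPKM or more in at least 1 library and called at 2-fold, with no test for 1 library per condition. For the 4 iPSC libraries the model was that of limma 3.58.1 under R 4.3.3 (trend, Benjamini-Hochberg), tested first on simulated data, with parental cells as a block because each table holds 1 source. Libraries of 1 source deviated from their group means together (correlation 0.441 over 11985 genes). The same-source lines are not stated to share an animal.

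Effective depth came from intronless receptor genes: with 1 offset of 204 bp for fragment length, 98.2% to 100% of a library's receptor values lay no more than 0.05 from a whole number. Values of 1 fragment set the depth and are no check of it. Fragment numbers of members used the shortest GENCODE M21 basic transcript and are approximate. None was computed for Kcnq1ot1, whose length in the authors' annotation is not given. Named list genes were the 4 with the largest absolute log2 ratio per list and comparison, and likeness took the 3 nearest genes. Others, such as Igf1, Igf1r, Ctcf and the markers named, were chosen after their values were seen. Alternatives were a pseudocount of 0.1, no minimum or 5 FPKM, centring, no trend, no replicate block, a library left out, and no small RNA genes.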

Additional observations from a re-analysis of the deposited data

Results flagged for a closer look

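A set of 3 members stood on opposite sides in the 2 iPSC pairs, each by more than its counting interval. The difference between the pairs was not tested, as each rests on 1 library per condition. How many of all measured genes do the same was not counted, so the 3 say nothing about the members as a set. H19 had a 4N- against 4N+ log2 ratio of -0.73 in the PF pair and 0.47 in the TTF pair. Of measured genes 2.27% and 98.6% lay at or below these ratios. Phlda2 had -0.42 in the PF pair and 0.22 in the TTF pair (13.0% and 91.2% of measured genes at or below). Cd81 went the other way, with 0.37 in the PF pair and -0.22 in the TTF pair (94.2% and 8.12% at or below). All 3 kept these signs with a pseudocount of 0.1, with no minimum or one of 5 FPKM, and after centring.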

How the results depend on the processing

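Within the tables, Igf2, H19 and Cdkn1c stayed past 2-fold upward in the knockout ESC under all 4 alternatives, with log2 ratios of 4.77 to 4.97, 2.61 to 3.19 and 2.34 to 2.54. The members' median in the ESC comparison was 0.85 with a pseudocount of 0.1 and also 0.85 with a minimum of 5 FPKM, over fewer genes in the latter case. In the PF pair the median turned to -0.31 with a minimum of 5 FPKM, which leaves out Igf2 among others, and 1 member passed 2-fold with a pseudocount of 0.1. In the limma fit 1 member, Igf2, was called with a minimum of 5 FPKM and 1, again Igf2, without small RNA genes, while 0 were called with no replicate block. Where Igf2 was called, its change was 0.65 as in the main fit. The fit called 27 genes higher and 40 lower at 5 FPKM, 33 and 59 without small RNA genes, and 0 and 0 with no minimum, where 602 genes had an unadjusted p under 0.05. With no replicate block it called 0 genes higher and 3 lower. Fits that left out 1 library used no block, compared values across tables and assumed that a lone library varies like the others. They called 0 members, and in them the Igf2 change ran from -0.27 to 1.56, and it was below 0 without the PF 4N+ line (-0.27) and without the TTF 4N- line (-0.12). Of 198 member values under alternatives 14 had the opposite sign, 13 of them in the limma fits that left out 1 library. No limma fit on all 4 iPSC libraries turned the sign of a member. Reckoned on the shortest transcript, fragment numbers were low for Ascl2 in all 6 libraries (about 39 to 59), Slc22a18 (about 62 to 124) and Igf2 in the PF pair (about 99 and 48). Igf2 transcripts run from 650 to 4722 bp and those of Ascl2 from 814 to 1605 bp. On a longer transcript the numbers of these genes would be higher.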

Other observations

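Entries of the window that belong to no list give further values, all chosen after their values were seen. Igf2as, the antisense entry at the Igf2 locus, had 3.64 FPKM in the knockout and 0.162 FPKM in its control, and 0.329 and 0.192 FPKM in the TTF 4N- and 4N+ lines. It was at most 0.0690 FPKM in the PF lines, so its order across the libraries resembled that of Igf2, with which it shares a listed position. Since strand use is not stated, reads of the 2 cannot be told apart with certainty. Dusp8, a phosphatase gene at the proximal edge of the window, stood at 3.72 FPKM in the knockout against 0.204 FPKM. R74862, listed at the same position as Cd81, was at 1.19 against 1.08 FPKM in the ESC libraries and between 1.05 and 1.35 FPKM in the iPSC lines.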
